A study of Mus musculus with 8 samples.

Results

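The genes described here encode the nuclear subunits of the oxidative phosphorylation system. They were taken by symbol from the gene count table: names beginning Nduf followed by a, b, c, s, v or ab and a number (complex I, with Ndufa4 placed in complex IV), Sdha to Sdhd (complex II), Uqcr (complex III), the Cox4i to Cox8a subunits (complex IV) and Atp5a to Atp5o (complex V). Of 81 matching genes, 78 reached 0.5 CPM (counts per 1000000 counts of a library) in at least 2 of the 8 libraries. The table held 24421 genes, of which 12424 passed the same minimum. This minimum used raw library totals, whereas the CPM of later paragraphs are after TMM scaling. Complex I held 35 of the 78, complex II 4, complex III 8, complex IV 16 and complex V 15. Ndufs5 and Cox7b2 had a count of 0 in every library, and Ndufa4l2 had between 0 and 9 counts. Only uniquely mapped reads were counted, so a count of 0 does not show that a gene is silent. Whether this applies to Ndufs5 was not tested. By raw library totals Ndufa4l2 reached at most 0.188 CPM and did not pass, whereas Cox6a2, which passed, ranged from 0 to 2.20 CPM.

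Total RNA came from CD11c+ cells isolated with magnetic beads from C57BL6 mouse bone marrow cultures, in which GM-CSF and TGF-β1 drive differentiation toward Langerhans cell (LC)-like cells. The Rara KO group (n = 2) came from ∆Rara CD11c mice, labelled RARa-/-, in which a CD11c-Cre-GFP transgene deletes a floxed exon of the retinoic acid receptor gene Rara only in cells that express CD11c. Its comparison group is WT 1 and WT 2, from the same experiment. The RA group (n = 2) was wild type and received all-trans retinoic acid at 1 nM per the labels; its comparison group, called Control here, is the other 2 wild-type samples. Per the study's methods a wild-type control could be a plain C57BL/6 mouse, a mouse with the floxed Rara alleles alone or a mouse with the Cre-GFP transgene alone, so a control sample need not carry Cre. Labels give neither age nor sex. They name both regular and charcoal-treated serum, and the study's legend for the RNA-seq puts every culture in charcoal-treated serum, which is low in retinoids. That legend also gives a higher RA dose than the labels do, so the dose is uncertain. Nothing ties a sample to one animal, so p-values measure the spread between 2 samples of a group, which may be partly technical. The comparisons ask how loss of RARα and how added RA change gene expression in cells under LC-inducing conditions.

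Oxidative phosphorylation is the mitochondrial process that makes most ATP in a resting cell. Complex I takes electrons from NADH and complex II takes them from succinate; complex III passes them by way of cytochrome c to complex IV, which reduces oxygen. Complexes I, III and IV pump protons across the inner membrane, and complex V, the ATP synthase, uses the returning protons to make ATP. All complexes but complex II combine subunits encoded in the nucleus with subunits encoded in mitochondrial DNA. In dendritic cells and macrophages the balance between this pathway and glycolysis is known to shift with activation.

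Library totals ran from 26325627 counts in Rara KO 1 to 76077813 in WT 2. The libraries differed in how reads lay along transcripts: 48.5% and 46.5% of uniquely mapped reads lay in 3' UTRs, by the deposited mapping summary, in the Rara KO libraries, against 39.0% and 35.8% in WT, 34.0% and 32.0% in RA, and 32.1% and 30.8% in Control. Rara counted over all its exons stood at 62.1 and 93.2 CPM in Rara KO cells, against 104 and 127 CPM in WT cells (log2 fold change -0.57 ± 0.18 SE, adjusted p = 0.052), a count that includes the exons the deletion leaves. Cd207, which encodes langerin, was at 0.540 and 0.259 CPM in Rara KO cells, against 18.4 and 19.8 CPM in WT cells, and at 0.0401 and 0.0377 CPM with RA, against 70.6 and 97.7 CPM in Control cells. Itgax, which encodes CD11c, was present in all libraries, between 504 CPM (RA 1) and 1309.8 CPM (WT 2). Of the 6 LC markers, 5 fell in Rara KO cells and 6 fell with RA. Xist, expressed from the inactive X chromosome, was at 1.08 and 0.259 CPM in Rara KO cells, against 91.1 and 253 CPM in WT cells, and at or under 0.0200 CPM in the RA and Control libraries. The Y-linked Ddx3y was at 52.9 and 51.8 CPM in Rara KO cells, against 30.0 and 0 CPM in WT cells. WT 1 thus held both transcripts and WT 2 held Xist without Ddx3y, so the WT libraries also differed from each other. The sex of the mice and the Rara deletion cannot be told apart in the first comparison.

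Most nuclear subunit genes stood higher in Rara KO cells than in WT cells, and most stood higher with RA than without it. In edgeR's quasi-likelihood test with Benjamini-Hochberg adjustment over all 12424 genes, 62 of 78 rose in Rara KO cells and 0 fell, against a background of 13.6% of all genes called higher and 13.3% called lower. With RA, 52 rose and 1, Ndufc2, fell, against 15.2% and 19.3% of all genes. In such bulk samples a larger share of cells of some type and more RNA per cell cannot be told apart. The median log2 fold change of the 78 genes was 0.63 in Rara KO cells, where the median of all genes was 0.00, and 0.39 with RA, where it was -0.01. Of the 78, 43 rose in both comparisons, 19 in Rara KO cells only, 9 with RA only and 7 in neither. No member fell in Rara KO cells at an unadjusted p under 0.05 either, and DESeq2 called 0 lower. Scaling to total counts instead of TMM shifted the median of all genes by -0.14 in the Rara KO comparison, with 979 genes called higher and 2770 lower where TMM gave 1688 and 1658; 53 members still rose.

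**Figure D1:**
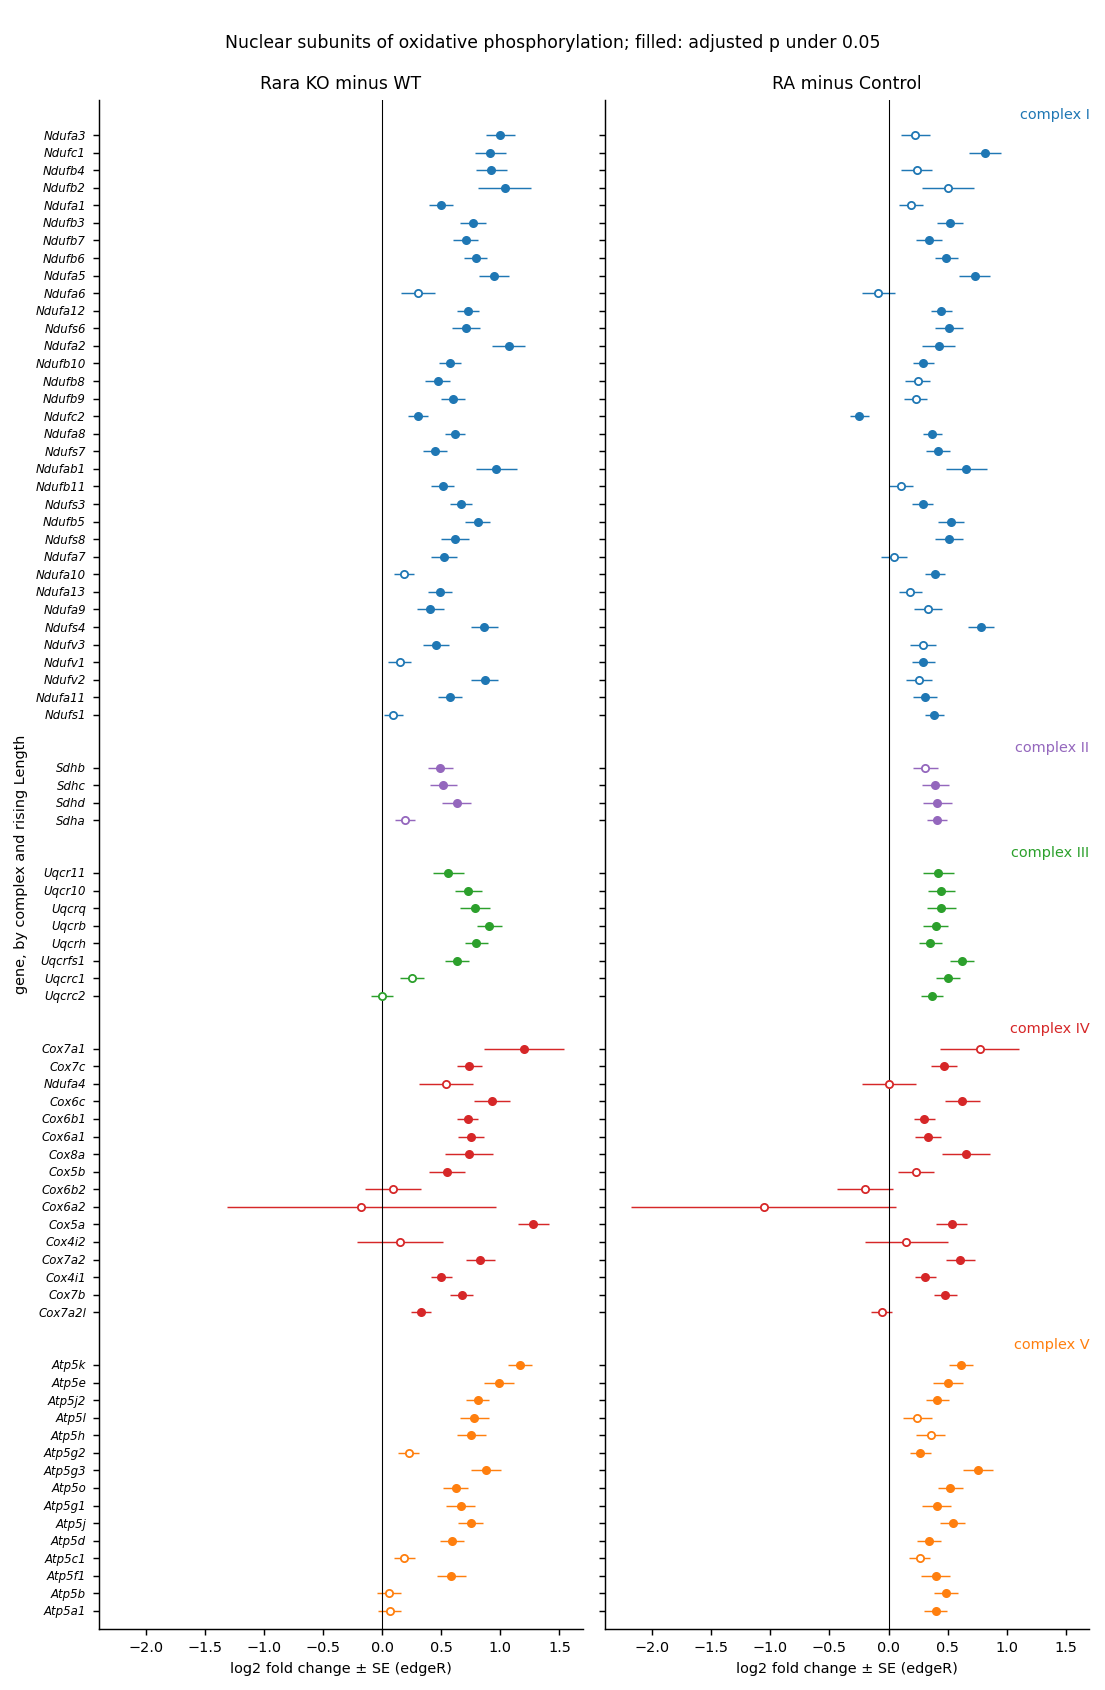
Each row is a subunit gene (1 of the 78 is not drawn), grouped by complex and ordered by rising Length of the gene model; the left panel gives the log2 fold change of Rara KO over WT and the right panel that of RA over Control, with bars of 1 SE and filled points where the adjusted p was under 0.05. In the left panel 62 points are filled, all to the right of 0; in the right panel 53 are filled, and Ndufc2 alone among them lies to the left.

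Added over the 78 genes, the subunits took 15638 and 14874 CPM in the Rara KO libraries, against 10907 and 10047 CPM in WT. They took 11925 and 11591 CPM in the RA libraries, against 9303 and 8617 CPM in Control. The groups did not overlap in either comparison, and the Rara KO libraries were the highest of all. As shares of the raw counts these were 1.43% and 1.32% in Rara KO, against 1.10% and 0.991% in WT, and 1.25% and 1.22% in RA, against 0.998% and 0.915% in Control. The untreated wild-type libraries of the 2 experiments also differed. Of 78 members, 65 were higher in WT 1 than in Control 1, and 65 were higher in WT 2 than in Control 2. The median log2 differences of the members were 0.27 and 0.29. For other genes of the shortest Length bin, described further on, they were 0.30 and 0.31. For the members in that bin they were 0.29 and 0.32, and for all genes 0.003 and -0.015. This difference between the experiments was thus shared by other short genes and was not particular to the subunits. Where all 4 untreated libraries were pooled as one control group, 60 members rose in Rara KO cells, but only 19 rose with RA.

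**Figure D2:**
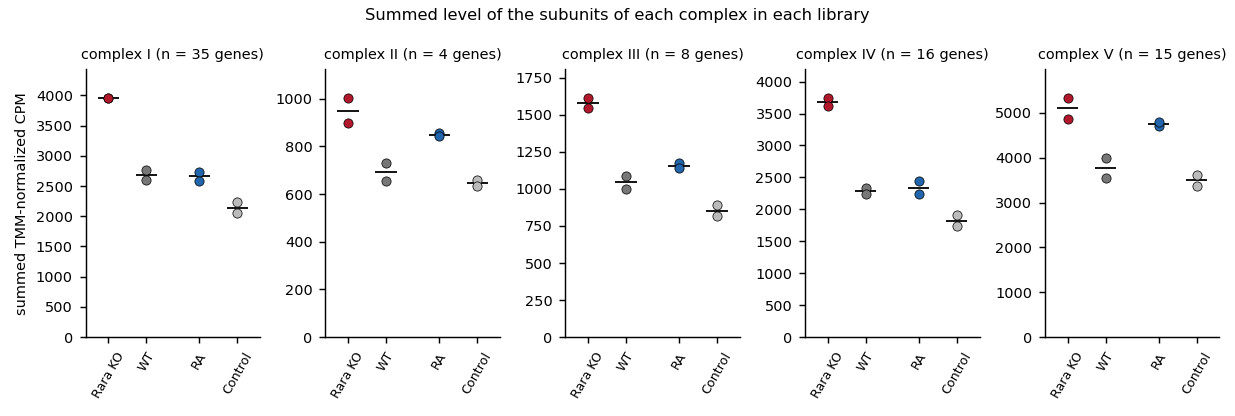
Summed TMM-normalized CPM (vertical axis) of the subunits of each complex in each library, with 1 point per library and a line at the mean of 2; Rara KO stands beside WT and RA beside Control. In all 5 panels both Rara KO points lie above both WT points and both RA points above both Control points; the complex I points of Rara KO are at 3955 and 3952 CPM, against 2771 and 2592 CPM in WT.

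The start sites of 65 of the 78 genes, with 70 windows, were found in RefSeq promoter sequence (GRCm38.p6, 250 bases before to 50 after a start). The windows of 4 genes on which results turn are printed: Atp5k and Atp5g3 are among the largest rises of complex V, Ndufs4 rose in both comparisons, and Ndufc2 was called in opposite directions. Capitals mark matches, on either strand, to GCGCATGC (NRF1), CCGGAAG (ETS factors such as GABP), AAGATGGC (YY1) or TCAAGGTCA (estrogen-related receptors), letters taken from textbook motifs of nuclear factors that control mitochondrial genes.
Atp5k, chr5:108434350-108434649, minus strand: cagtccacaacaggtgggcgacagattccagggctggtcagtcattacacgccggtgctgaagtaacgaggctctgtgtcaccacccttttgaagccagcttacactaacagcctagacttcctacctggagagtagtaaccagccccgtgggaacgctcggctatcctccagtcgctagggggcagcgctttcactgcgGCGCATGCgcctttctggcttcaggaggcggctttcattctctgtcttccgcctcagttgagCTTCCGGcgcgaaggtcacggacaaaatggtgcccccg
Atp5g3, chr2:73911277-73911576, minus strand: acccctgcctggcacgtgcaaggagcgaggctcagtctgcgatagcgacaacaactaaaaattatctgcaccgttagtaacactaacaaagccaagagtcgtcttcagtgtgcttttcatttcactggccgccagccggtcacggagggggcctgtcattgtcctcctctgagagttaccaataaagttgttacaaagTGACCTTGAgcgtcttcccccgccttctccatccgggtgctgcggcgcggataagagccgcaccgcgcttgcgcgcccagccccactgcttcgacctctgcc
Ndufs4, chr13:114388045-114388344, minus strand: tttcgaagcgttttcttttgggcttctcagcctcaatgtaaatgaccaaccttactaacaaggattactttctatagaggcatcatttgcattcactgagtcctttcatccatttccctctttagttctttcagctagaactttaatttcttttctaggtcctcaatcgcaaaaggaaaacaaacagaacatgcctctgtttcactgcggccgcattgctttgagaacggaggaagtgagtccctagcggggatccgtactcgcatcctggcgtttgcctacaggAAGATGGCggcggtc
Ndufc2, chr7:97399753-97400052, plus strand: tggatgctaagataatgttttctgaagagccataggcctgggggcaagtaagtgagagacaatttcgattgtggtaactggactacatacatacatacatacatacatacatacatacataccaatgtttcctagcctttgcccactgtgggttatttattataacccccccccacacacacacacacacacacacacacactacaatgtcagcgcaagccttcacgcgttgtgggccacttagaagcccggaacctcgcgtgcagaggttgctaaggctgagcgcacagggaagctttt
The Atp5k window holds the NRF1 and the ETS letters, and the Atp5g3 window those of the estrogen-related receptors on the opposite strand. The Ndufs4 window holds those of YY1 just after the start. None of the 4 strings was found in the Ndufc2 window. The windows of Cox5a, Uqcrfs1 and Ndufa5, which rose in both comparisons, also held none. Whether the letters go with the change of a gene was not tested. Over the 70 member windows, the NRF1 letters were in 14.3%, the ETS letters in 22.9%, the YY1 letters in 14.3% and the estrogen-related receptor letters in 2.86%. Over all 32851 windows they were in 2.71%, 8.86%, 2.75% and 0.423%. Counted by gene and set against tested genes only, the NRF1 letters were in 15.4% of the members matched and 6.04% of the tested genes matched, and the ETS letters in 24.6% and 20.4%. A direct repeat of AGGTCA or GGTTCA with 5 bases between its copies, the form RAR is best known to bind, was in 0 of the 70 member windows and in 6 of all windows. No searched motif contains another, and a match is a description of the letters, not of binding.

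Complex I, the NADH dehydrogenase, had 30 of its 35 genes called higher in Rara KO cells and 20 with RA. Their summed level was 3955 and 3952 CPM in Rara KO cells, against 2771 and 2592 CPM in WT cells, and 2739 and 2576 CPM with RA, against 2235 and 2048 CPM in Control cells. All 35 genes had both Rara KO libraries above both WT libraries, where 32.6% of all genes did. With RA, 31 had both libraries above both Control libraries, where 36.8% of all genes did. These shares were not counted over genes of like Length.

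The largest rises of complex I in Rara KO cells were those of Ndufa2, Ndufb2 and Ndufa3, all accessory subunits. Ndufa2 (chr18:36742332-36744587) was at 133 and 116 CPM in Rara KO cells, against 63.6 and 55.3 CPM in WT cells (log2 fold change 1.07 ± 0.14, adjusted p = 0.0028). Ndufb2 (chr6:39592583-39599471), a low gene, was at 27.3 and 31.0 CPM, against 10.7 and 17.6 CPM in WT cells (1.04 ± 0.22, adjusted p = 0.014). Ndufa3 is taken up with the differences between comparisons. In both genes the gap between the groups exceeded the gap between the WT libraries. With RA, Ndufa2 was at 66.3 and 55.1 CPM, against 49.2 and 41.4 CPM in Control cells (0.42 ± 0.14, adjusted p = 0.048), and Ndufb2 was not called (0.50 ± 0.22, adjusted p = 0.11).

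With RA the largest rises of complex I were in Ndufc1, Ndufs4 and Ndufa5, which also rose in Rara KO cells. Ndufs4 (chr13:114287795-114388094) encodes an accessory subunit whose loss causes Leigh syndrome in humans and a fatal encephalopathy in mice. It was at 88.9 and 78.4 CPM with RA, against 49.99 and 47.3 CPM in Control cells (0.78 ± 0.11, adjusted p = 0.0013). It was at 108 and 104 CPM in Rara KO cells, against 62.9 and 53.6 CPM in WT cells (0.86 ± 0.11, adjusted p = 0.0027). The 4 groups thus gave 2 similar rises from similar base levels. Ndufc1 was at 43.7 and 34.8 CPM with RA, against 22.6 and 21.9 CPM in Control cells (0.82 ± 0.13, adjusted p = 0.0026). Ndufa5 was at 45.3 and 41.4 CPM with RA, against 27.5 and 24.8 CPM in Control cells (0.73 ± 0.13, adjusted p = 0.0040). Both genes rose in Rara KO cells as well, by 0.92 ± 0.13 and 0.95 ± 0.13 on the log2 scale.

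Ndufv2, a core subunit singled out after its values were seen, was at 241 and 233 CPM in Rara KO cells, against 139.9 and 120.3 CPM in WT cells (0.87 ± 0.11, adjusted p = 0.0027). With RA it was at 108 and 100.4 CPM, against 93.6 and 80.7 CPM in Control cells, which was not called (0.26 ± 0.11, adjusted p = 0.11). The genes Ndufa1, Ndufb11 and the complex IV gene Cox7b lie on the X chromosome; they rose in Rara KO cells by 0.50 ± 0.10, 0.51 ± 0.10 and 0.67 ± 0.10, beside the Xist levels given above, whose part in this was not tested.

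Complex II, succinate dehydrogenase, links the tricarboxylic acid (TCA) cycle to the respiratory chain and has only 4 subunits, all nuclear. Sdhb, Sdhc and Sdhd rose in Rara KO cells, and Sdha, Sdhc and Sdhd rose with RA. Sdha (chr13:74322255-74350240), the flavoprotein that oxidises succinate, was at 306 and 322 CPM with RA, against 238 and 233 CPM in Control cells (0.41 ± 0.08, adjusted p = 0.0069). It was at 264 and 249.6 CPM in Rara KO cells, against 223 and 226 CPM in WT cells (0.19 ± 0.08, adjusted p = 0.12). In this fit Sdha passed the test with RA only, though the Rara KO libraries too lay above WT. Sdhd, one of the membrane anchors, was at 382 and 316 CPM in Rara KO cells, against 244 and 207 CPM in WT cells (0.63 ± 0.12, adjusted p = 0.0097). With RA it was at 259 and 249.8 CPM, against 197 and 186 CPM in Control cells (0.41 ± 0.12, adjusted p = 0.033). Sdhc, the other anchor, rose by 0.52 ± 0.11 in Rara KO cells and by 0.40 ± 0.11 with RA. Sdhb, the iron-sulfur subunit, rose by 0.49 ± 0.11 in Rara KO cells and missed the threshold with RA (0.31 ± 0.11, adjusted p = 0.054). With the trend of each library with gene length removed, as described further on, Sdha was the 1 gene of complex II called, in Rara KO cells (0.29, adjusted p = 0.043) and with RA (0.41, adjusted p = 0.0057). Sdhb, Sdhc and Sdhd then passed in neither comparison, with adjusted p between 0.076 and 0.35.

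All 8 genes of complex III, the cytochrome bc1 complex, rose with RA, and 6 rose in Rara KO cells. The summed level was 1612 and 1544 CPM in Rara KO cells, against 1089 and 1000.3 CPM in WT cells, and 1174 and 1140.1 CPM with RA, against 888 and 815 CPM in Control cells. Uqcrfs1 (chr13:30540312-30545316) encodes the Rieske iron-sulfur protein. It was at 184.5 and 181 CPM in Rara KO cells, against 124 and 111 CPM in WT cells (0.63 ± 0.10, adjusted p = 0.0049). It was at 165 and 147 CPM with RA, against 104 and 98.1 CPM in Control cells (0.62 ± 0.10, adjusted p = 0.0024). Its rises were of nearly the same size in both comparisons. Uqcrc1 and Uqcrc2, the large core subunits that face the matrix, were called with RA only. Uqcrc2 was at 155.5 and 147 CPM in Rara KO cells, against 157 and 146 CPM in WT cells, so that the groups overlapped (log2 fold change within 0.01 of 0, SE 0.09). With RA it was at 184 and 202 CPM, against 149 and 151 CPM in Control cells (0.36 ± 0.09, adjusted p = 0.017). Uqcrc1 was at 219 and 215 CPM with RA, against 162 and 144 CPM in Control cells (0.50 ± 0.10, adjusted p = 0.0066), and was not called in Rara KO cells (0.25 ± 0.10, adjusted p = 0.097).

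The small subunits of complex III had larger log2 fold changes in Rara KO cells than with RA. Uqcrb was at 287 and 253 CPM in Rara KO cells, against 154 and 134 CPM in WT cells (0.91 ± 0.11, adjusted p = 0.0022). Uqcrh (chr4:116066965-116075070), the hinge protein and the complex III gene with the highest mean CPM, was at 386 and 387 CPM in Rara KO cells, against 236 and 209 CPM in WT cells (0.80 ± 0.09, adjusted p = 0.0023). Uqcrq was at 123 and 144 CPM in Rara KO cells, against 71.9 and 83.0 CPM in WT cells (0.79 ± 0.13, adjusted p = 0.0050). In these 3 genes the lower Rara KO library exceeded the higher WT library by more than the gap within either group. With RA the rises were 0.40 ± 0.10 for Uqcrb, 0.35 ± 0.09 for Uqcrh, 0.45 ± 0.12 for Uqcrq and 0.45 ± 0.11 for Uqcr10, all called. A test of the difference between the effects called 0 genes of complex III. The small subunit genes are 436 to 546 bases long, against 1656 for Uqcrc1 and 1882 for Uqcrc2. Short genes in general stood higher in Rara KO cells, as described further on.

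In complex IV, cytochrome c oxidase, 12 of 16 genes rose in Rara KO cells and 9 rose with RA. Cox5a (chr9:57521232-57532426) encodes a subunit of the matrix side and had the largest log2 fold change of all 78 genes in Rara KO cells. It was at 516 and 439 CPM in Rara KO cells, against 209 and 185 CPM in WT cells, a 2.43-fold difference (1.28 ± 0.13, adjusted p = 0.0016). It was at 219.9 and 186 CPM with RA, against 149.7 and 131 CPM in Control cells (0.53 ± 0.13, adjusted p = 0.016). The Rara KO libraries thus stood apart from the 6 others, which lay between 131 and 219.9 CPM. Cox6c was at 361 and 287 CPM in Rara KO cells, against 190.0 and 150.4 CPM in WT cells (0.93 ± 0.15, adjusted p = 0.0051), and at 224 and 199 CPM with RA, against 141 and 134 CPM in Control cells (0.62 ± 0.15, adjusted p = 0.014). With RA, Cox8a (0.66 ± 0.20, adjusted p = 0.038) and Cox7a2 (0.61 ± 0.12, adjusted p = 0.0069) were the other large rises; Cox8a varied more between libraries, with 145 and 199 CPM in Rara KO cells, against 84.0 and 123 CPM in WT cells.

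Cox4i1 (chr8:120668225-120674209), the ubiquitous form of subunit 4 and the complex IV gene with the highest mean CPM, was at 691 and 688 CPM in Rara KO cells, against 499 and 477 CPM in WT cells (0.50 ± 0.09, adjusted p = 0.0071). With RA it was at 414 and 377 CPM, against 323 and 313 CPM in Control cells (0.31 ± 0.09, adjusted p = 0.028). The WT libraries here lay above the RA libraries, and against the 4 pooled untreated libraries the RA value was -0.03 and not called. Ndufa4, once counted with complex I and now known as a complex IV subunit, was at 138 and 91.1 CPM in Rara KO cells, against 95.4 and 62.5 CPM in WT cells, and at 88.4 and 84.0 CPM with RA, against 89.5 and 82.5 CPM in Control cells. Its groups overlapped in both comparisons and it was not called in either. Cox7a2l, which acts in joining complexes III and IV into supercomplexes, rose by 0.33 ± 0.09 in Rara KO cells and was not called with RA (-0.06 ± 0.09, adjusted p = 0.65).

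The tissue isoforms of complex IV were low. Cox4i2, the form known from lung and from hypoxia, was at 2.33 and 1.30 CPM in Rara KO cells, against 1.90 and 1.36 CPM in WT cells, and at 2.18 and 1.752 CPM with RA, against 1.66 and 1.88 CPM in Control cells. Per kilobase of gene model, Cox4i1 exceeded Cox4i2 by between 158 and 505 times in the 8 libraries. Cox6b2, the testis form, lay between 7.07 and 18.8 CPM and Cox6a2, the heart and muscle form, between 0 and 2.07 CPM; neither was called in either comparison. Cox7a1, also a heart and muscle form, was at 4.99 and 2.75 CPM in Rara KO cells, against 1.49 and 1.85 CPM in WT cells (1.20 ± 0.34, adjusted p = 0.033). With RA it was at 2.53 and 2.49 CPM, against 1.66 and 1.27 CPM in Control cells (0.77 ± 0.34, adjusted p = 0.11). Of the 4 isoforms Cox7a1 alone passed the test, at a level under 5 CPM.

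Complex V, the ATP synthase, had 11 of 15 genes called higher in Rara KO cells and 12 with RA. Atp5k (chr5:108433253-108434378), which encodes subunit e at the dimer interface, had the highest log2 fold change of the complex in Rara KO cells. It was at 154.7 and 154.7 CPM in Rara KO cells, against 72.6 and 65.3 CPM in WT cells, a 2.24-fold difference (1.17 ± 0.10, adjusted p = 0.0011). It was at 104 and 97.7 CPM with RA, against 70.0 and 61.3 CPM in Control cells (0.62 ± 0.10, adjusted p = 0.0028). The order Rara KO, RA, untreated held for every library of this gene. Atp5e, the epsilon subunit of the F1 stalk, was at 259.9 and 231 CPM in Rara KO cells, against 135 and 112 CPM in WT cells (0.99 ± 0.13, adjusted p = 0.0027), and rose by 0.51 ± 0.13 with RA. Atp5g3, 1 of 3 genes for the c subunit of the proton-driven rotor, was at 461 and 367 CPM in Rara KO cells, against 233 and 218 CPM in WT cells (0.88 ± 0.13, adjusted p = 0.0039). It was at 363 and 353 CPM with RA, against 227 and 197 CPM in Control cells (0.75 ± 0.13, adjusted p = 0.0031). The 3 c-subunit genes encode the same mature protein: Atp5g1 rose by 0.66 ± 0.12 in Rara KO cells and by 0.41 ± 0.12 with RA, whereas Atp5g2 gave 0.22 ± 0.09 (adjusted p = 0.097) in Rara KO cells and rose by 0.27 ± 0.09 with RA. Whether the 3 genes differ in their change was not tested.

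The genes of the alpha and beta subunits of F1 were called with RA and not in Rara KO cells. Atp5b (chr10:128083307-128090388), the catalytic beta subunit and the complex V gene with the highest mean CPM, was at 934 and 864 CPM in Rara KO cells, against 911 and 818 CPM in WT cells, with overlapping libraries (0.06 ± 0.10, adjusted p = 0.70). It was at 1250.2 and 1332 CPM with RA, against 932 and 913 CPM in Control cells (0.49 ± 0.10, adjusted p = 0.0072). The alpha subunit gene Atp5a1 was at 799 and 724 CPM in Rara KO cells, against 756 and 702 CPM in WT cells (0.06 ± 0.10, adjusted p = 0.66), and at 973 and 1039.6 CPM with RA, against 785 and 740.2 CPM in Control cells (0.40 ± 0.10, adjusted p = 0.016). Both RA libraries of these genes lay above the 6 others. The WT and Control levels of these 2 genes were close to each other. The difference between the effects, RA minus Rara KO, was called for neither. It was 0.43 ± 0.14 for Atp5b (adjusted p = 0.11) and 0.34 ± 0.14 for Atp5a1 (adjusted p = 0.19). Both are long for members, at 1879 and 2431 bases, and short genes in general stood higher in Rara KO cells, as described further on.

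**Figure D3:**
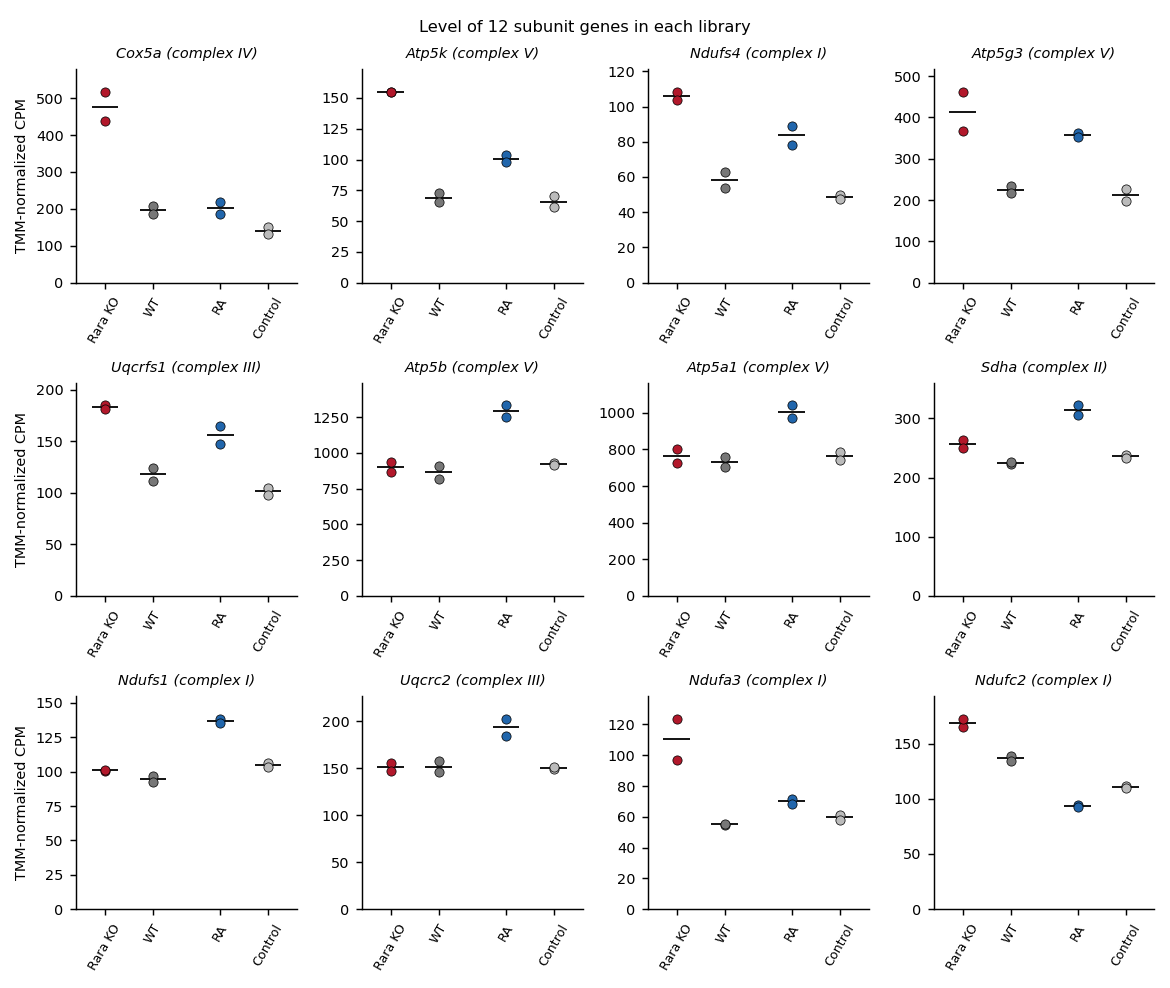
TMM-normalized CPM (vertical axes, from 0) of 12 subunit genes in each library, 1 point per library with a line at the mean of 2. Cox5a, Atp5k, Ndufs4, Atp5g3 and Uqcrfs1 are higher in Rara KO than in WT and in RA than in Control; for Atp5b, Atp5a1, Ndufs1 and Uqcrc2 only the RA points lie clearly above the rest, and for Ndufc2 the Rara KO points lie above and the RA points below all untreated points of their own experiment.

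The genes that rose with RA only were Ndufs1, Ndufv1, Ndufa10, Sdha, Uqcrc1, Uqcrc2, Atp5a1, Atp5b and Atp5g2, with a median Length of 1879 bases; the 19 that rose in Rara KO cells only had a median Length of 651 bases. A test of the difference between the effects, RA minus Rara KO, called 2 of 78 members, against 6.09% of all genes. Ndufa3 (chr7:3617373-3620161), an accessory subunit of complex I, was at 97.2 and 124 CPM in Rara KO cells, against 54.9 and 55.6 CPM in WT cells (1.00 ± 0.12, adjusted p = 0.0024). It was at 71.6 and 68.3 CPM with RA, against 61.5 and 58.0 CPM in Control cells (0.23 ± 0.12, adjusted p = 0.18). The difference was -0.77 ± 0.17 (adjusted p = 0.040). Ndufa3 thus rose with the deletion by more than with RA, which was not called.

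Ndufc2 (chr7:97400003-97407800), an accessory subunit of the membrane arm, was the only member called in opposite directions, and both calls depended on the processing. In Rara KO cells it turned to -0.17, not called, with the Length trend removed, and the call with RA was lost with RLE or upper-quartile scaling, with no filter and with any library left out, while its value stayed below 0 in these fits. It was at 165 and 172 CPM in Rara KO cells, against 139 and 134.5 CPM in WT cells (0.30 ± 0.08, adjusted p = 0.028). It was at 93.95 and 92.8 CPM with RA, against 112 and 109.9 CPM in Control cells (-0.25 ± 0.08, adjusted p = 0.047). The difference was -0.55 ± 0.11 (adjusted p = 0.034). Ndufc1, another small subunit of that arm, rose in both. For the 9 genes called with RA only, a choice that all but fixes the sign of the difference, no adjusted p of the difference was under 0.11. Neither call of a difference held with the Length trend removed or when WT 1, WT 2, Rara KO 2 or any RA or Control library was left out (0 called), and 1 held without Rara KO 1; DESeq2 called 11, of which 10 were lower with RA and 1 higher.

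**Figure D4:**
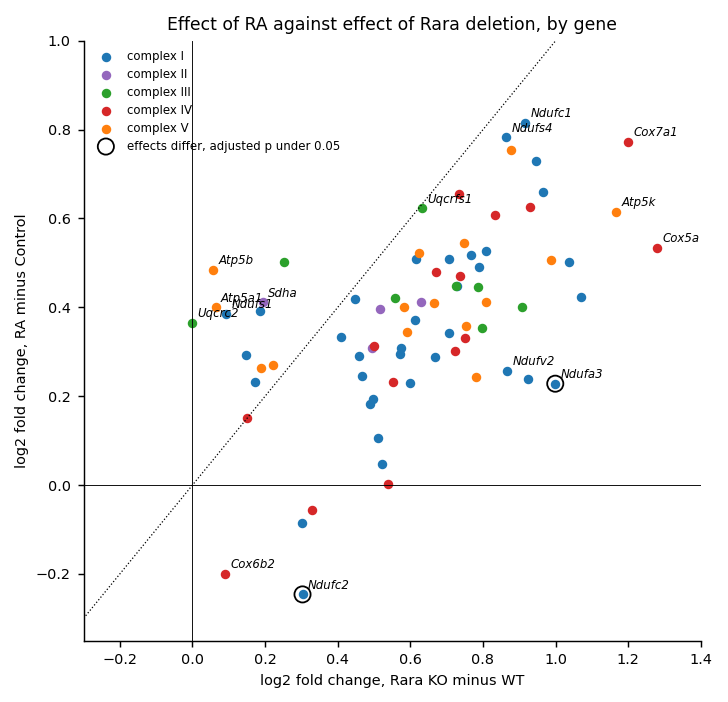
Each point is 1 gene, with the log2 fold change of Rara KO over WT on the horizontal axis and that of RA over Control on the vertical axis; colours mark the complex, the dotted line marks equal values, and Cox6a2, too low to place well, is left out. Most points lie in the upper right below the dotted line; Atp5b, Atp5a1, Ndufs1, Uqcrc2 and Sdha lie above it near 0 on the horizontal axis, and the 2 ringed genes, Ndufa3 and Ndufc2, are those whose effects differed.

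Levels were compared between genes per length of the gene model. This takes reads to lie evenly along a transcript, whereas their 3' UTR share differed between the groups, as given above. What that does to the order of genes was not tested. Per kilobase of gene model, the median over the 4 untreated libraries was highest for Cox4i1 (524 CPM per kilobase, range 409.7 to 653), Atp5b (485, range 435 to 496), Cox6b1 (397, range 347 to 428) and Uqcrh (329, range 261 to 432). The range of Atp5b lay above those of Cox6b1 and Uqcrh, whereas the other pairs among these 4 overlapped, so their order is not fixed beyond the spread. The lowest common subunit was Ndufa11 (18.9, range 14.5 to 22.9), from a long gene model of 2661 bases. By complex, the median subunit of complex I was at 137 and 136 CPM per kilobase in Rara KO cells, against 84.6 and 75.7 in WT cells, and that of complex V at 331 and 316, against 241 and 224 in WT cells. With RA the median subunit of complex I was at 90.2 and 84.1 CPM per kilobase, against 70.3 and 62.1 in Control cells. That of complex V was at 219 and 216 with RA, against 187 and 157 in Control cells. The median subunit of complex I thus lay below that of complex V in every group. Single genes overlapped: the median over the untreated libraries was 195 for Ndufb8 of complex I and 143 for Atp5d of complex V.

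Because most subunit genes are short, they were also set beside other genes of like Length, the summed exon length of the gene model. In 10 equal bins, 56 members fell in the shortest, from 56 to 1132 bases. The 1187 other genes there also stood higher: their median log2 fold change was 0.46 in Rara KO cells, with 41.9% called higher, and 0.21 with RA, with 23.3% called higher. In the longest bin the median of other genes was -0.18 in Rara KO cells and -0.19 with RA. The 56 members had medians of 0.73 in Rara KO cells, with 50 called, and 0.41 with RA, with 38 called. Over all bins, 67 of 78 members lay above the median of other genes of like Length in Rara KO cells and 68 of 78 with RA, by a median of 0.25 and 0.21 on the log2 scale. The members below it in Rara KO cells included Atp5b, Uqcrc2, Ndufv1, Ndufa10 and Ndufc2.

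**Figure D5:**
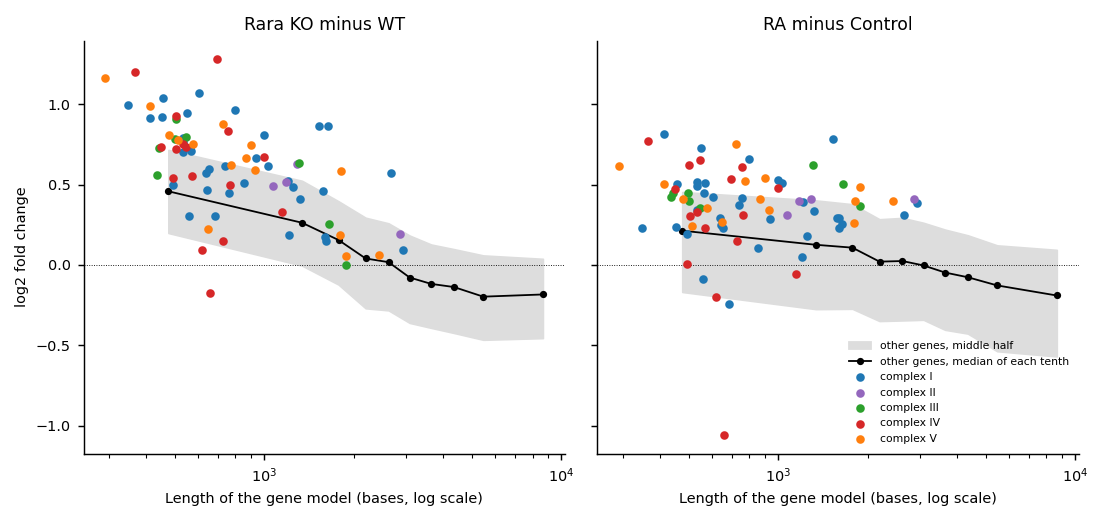
Log2 fold change (vertical axis) against Length of the gene model in bases (horizontal log axis) for Rara KO over WT (left) and RA over Control (right); coloured points are the subunit genes, the black line joins the medians of other genes in 10 equal Length bins, and the grey band spans their middle 50%. The line falls with Length in both panels, more steeply on the left, where the median of the shortest bin is 0.46 and that of the longest -0.18; most coloured points lie above the line.

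With the Length trend of each library removed before the fit, 23 members rose and 0 fell in Rara KO cells (8.97% of all genes higher), and 23 rose and 1 fell with RA (14.4% higher). The medians were then 0.22 and 0.20. Of the 23 in Rara KO cells, 22 were also called without the removal, and all 23 with RA were; 14 rose in both comparisons. These 14 were Ndufs4, Ndufc1, Ndufa5, Ndufa11, Ndufab1, Ndufb3, Ndufb5, Sdha, Uqcrfs1, Cox5a, Cox7a2, Atp5g3, Atp5j and Atp5k. Ndufs4 gave 0.64 in Rara KO cells (adjusted p = 0.0062) and 0.68 with RA (adjusted p = 0.0015). Ndufa11, at 2661 bases the longest member called in Rara KO cells before the removal, gave 0.64 and 0.30, and Cox5a gave 0.81 and 0.32. Ndufc2 turned to -0.17 in Rara KO cells, not called, and fell by 0.46 with RA (adjusted p = 0.0044). These counts rest on all libraries: in Rara KO cells 6 rose without Rara KO 1, 13 without Rara KO 2, 11 without WT 1, 5 without WT 2, 9 without Control 1 and 10 without Control 2, and with RA 13 rose without RA 1, 9 without RA 2, 10 without Control 1 and 3 without Control 2.

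Within each group, replicate 1 was also the library with the higher 3' UTR share of reads. In 50 of 78 members Rara KO 1 was above Rara KO 2, and in 60 WT 1 was above WT 2. In 67 RA 1 was above RA 2, and in 73 Control 1 was above Control 2. Replicate number and 3' UTR share cannot be told apart in these pairs, and the same count was not made over all genes. RA 2 and Control 1 had nearly equal 3' UTR shares, 32.0% and 32.1%. Between these single libraries 70 of 78 members were higher in RA 2, by a median of 0.29 on the log2 scale, and other genes of the shortest bin were higher by 0.08. With a single library on each side, an effect of RA and other differences between these libraries cannot be told apart. The 3' UTR shares of Rara KO and WT did not overlap, so the deletion and the read distribution cannot be told apart either. The count of members higher with RA was 52 with all libraries, 21 without RA 1, 34 without RA 2, 34 without Control 1 and 6 without Control 2, while the median log2 fold change stayed between 0.32 and 0.44.

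Genes that act beside the subunits were counted from lists made with earlier results of these data known. Of 7 tested subunits and electron carriers outside the naming rule, 4 rose in Rara KO cells and 4 with RA. Cycs, cytochrome c, was at 118 and 103 CPM in Rara KO cells, against 82.7 and 67.0 CPM in WT cells (0.56 ± 0.12, adjusted p = 0.014), and at 106 and 112 CPM with RA, against 72.5 and 69.9 CPM in Control cells (0.62 ± 0.12, adjusted p = 0.0063). Cyc1, cytochrome c1 of complex III, rose with RA by 0.65 ± 0.11 and was not called in Rara KO cells (0.28 ± 0.11, adjusted p = 0.084). The small ATP synthase subunit gene 2010107E04Rik rose by 0.99 ± 0.11 and by 0.58 ± 0.11. Of 46 assembly factors, 18 rose and 2 fell in Rara KO cells, and 9 rose and 2 fell with RA. Of all genes, 13.6% were called higher in Rara KO cells and 15.2% with RA. Cox17, a copper chaperone of complex IV, rose by 0.96 ± 0.13 in Rara KO cells and by 0.48 ± 0.13 with RA. Assembly factors had medians of 0.39 and 0.19, below the subunits' 0.63 and 0.39. They are also longer, with a median Length of 1562 bases against 708. With the Length trend removed their medians were 0.10 and 0.09, against 0.22 and 0.20 for the subunits. On that scale 9 assembly factors rose and 3 fell in Rara KO cells, where 8.97% of all genes rose. With RA 3 rose and 3 fell, where 14.4% of all genes rose.

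Among 12 tested regulators of mitochondrial genes, 2 rose in Rara KO cells, a share near the 13.6% of all genes, 3 rose with RA, where 15.2% of all genes did, and 0 fell. Tfam, which packages and transcribes mitochondrial DNA, was at 56.4 and 47.0 CPM in Rara KO cells, against 36.1 and 31.6 CPM in WT cells (0.61 ± 0.12, adjusted p = 0.0095), and at 43.7 and 43.5 CPM with RA, against 34.99 and 32.7 CPM in Control cells (0.36 ± 0.12, adjusted p = 0.044). Myc, a growth regulator, was at 134 and 149.7 CPM with RA, against 79.9 and 69.3 CPM in Control cells (0.93 ± 0.10, adjusted p = 4.1e-04), and at 102 and 102 CPM in Rara KO cells, against 83.5 and 80.2 CPM in WT cells (0.32 ± 0.10, adjusted p = 0.055). Ppargc1b, a coactivator of mitochondrial biogenesis, rose with RA by 0.81 ± 0.20 at a level under 5 CPM, and Esrra, the estrogen-related receptor alpha, rose in Rara KO cells by 0.38 ± 0.11. Nrf1, Gabpa and Yy1 were called in neither comparison. Of 14 TCA cycle genes, 7 rose with RA, and 3 rose and 1 fell in Rara KO cells. Mdh2, mitochondrial malate dehydrogenase, was at 353 and 388 CPM with RA, against 168 and 157 CPM in Control cells (1.19 ± 0.13, adjusted p = 3.1e-04), and rose by 0.81 ± 0.13 in Rara KO cells. With RA this exceeded the change of any of the 78 subunits.

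Ribosomal protein genes, many of them short, also stood higher. Of 77 mitochondrial ribosomal protein genes, 51 rose in Rara KO cells (median 0.47) and 41 with RA (median 0.38). Of 81 cytosolic ribosomal protein genes, 57 rose in Rara KO cells (median 0.43) and 39 with RA (median 0.32). With the Length trend removed the cytosolic ribosome had 7 higher and 4 lower in Rara KO cells, with a median of 0.02, and 8 higher with RA, with a median of 0.10. The mitochondrial ribosome then had 19 higher and 0 lower in Rara KO cells, with a median of 0.16, and 23 higher and 1 lower with RA, with a median of 0.22. The subunits' medians of 0.22 and 0.20 on that scale were thus nearer to those of the mitochondrial ribosome. Reads mapped to the mitochondrial genome, which encodes the other subunits, were 1.803% and 1.87% of reads in Rara KO cells, against 2.12% and 1.84% in WT cells, and 1.92% and 1.52% with RA, against 1.25% and 1.29% in Control cells. The shares overlapped for Rara KO and WT and did not for RA and Control; genes of the mitochondrial genome were not analysed here one by one.

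Markers of other cells and of cycling moved in part with the subunits, and their part in the results was not tested. Of 6 proliferation genes, 4 rose with RA and 1 in Rara KO cells, with summed levels from 1854 to 1967 CPM with RA, against 1168 to 1391 CPM in Control cells, and from 1123 to 1444 CPM in Rara KO cells, against 847 to 1099 CPM in WT cells. Of 6 macrophage and monocyte markers, 2 rose and 1 fell in both comparisons, and their summed level lay between 948 and 1576 CPM in all libraries. Neutrophil markers summed to between 681 and 2438 CPM in Rara KO cells, against 523 to 2233 CPM in WT cells, and to between 159 and 196 CPM with RA, against 790.1 and 1102 CPM in Control cells, where 2 of 6 fell. Of 6 eosinophil, mast cell and basophil markers, 2 rose in Rara KO cells, and with RA 1 rose, Siglecf, and 1 fell, Mcpt8. Their median log2 fold change was 0.95 in Rara KO cells and -1.63 with RA, yet their sums stood higher in both. They summed to between 141 and 213 CPM in Rara KO cells, against 52.8 to 76.96 CPM in WT cells, and to between 46.0 and 78.9 CPM with RA, against 20.3 to 33.1 CPM in Control cells. Most of the sum with RA was Siglecf, at 44.9 and 76.9 CPM with RA, against 18.2 and 24.4 CPM in Control cells. B, T and NK cell markers stayed under 5.8 CPM and erythroid markers under 1.06 CPM in sum.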

How the data were processed

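mRNA libraries (stranded, paired-end) were made from 8 samples: 2 Rara KO, 2 RA and 4 wild type (WT). Per the labels and the study's methods, the authors aligned reads to mm10 with STAR and counted uniquely mapped reads per gene with featureCounts; the deposited counts are not normalized, and tool versions were not stated in any source consulted. Reads shared with near-identical copies are therefore not counted. A deposited table of the authors' own fold changes and p-values was not used. Control columns could not be tied to single wild-type samples and were used as a group.

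Counts were fitted with edgeR 4.0.16 (R 4.3.3; TMM factors, quasi-likelihood test) over all 8 libraries with 4 levels, on 12424 genes with at least 0.5 CPM in 2 libraries; p-values were adjusted by Benjamini-Hochberg over these genes and called at 0.05. CPM are TMM-normalized, except that the 0.5 CPM minimum and the CPM given beside it used raw library totals. The sign ± is 1 SE of a log2 fold change, and n = 2 per group. The SE was derived from the test, as the absolute log2 fold change over the square root of its F statistic. It thus rests on the spread estimated over all 4 levels of the fit, not on the 2 groups compared alone. For the Length trend, a spline with 4 degrees of freedom of each library's deviation on log2 Length was used as an offset, centred so that TMM set the level; the centring was chosen after seeing the data. Scripts were tested on simulated data. Named genes were, per complex and comparison, up to 3 called members with the largest change, the member with the highest mean CPM, isoforms of complex IV, and members called in opposite directions or with differing effects; from each other list, up to 3 genes with the smallest p. The other members and regulators named, and the genes used to check cell type and sex, were chosen after their values were seen. Members, lists and tests were chosen with earlier results of these data known. Alternatives (other scalings, DESeq2 1.42.0, other filters, pooled or separate experiments, a replicate block, trends and left-out libraries) are in the closing section. The values of 1 member are not reported here; it stays in the counts, sums and medians.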

Additional observations from a re-analysis of the deposited data

Results flagged for a closer look

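Of 38 values tested over the 4 untreated libraries (32 named genes and 6 sums of members), 1 had a library far from the rest: Sdhb was at 128 CPM in WT 1, against 106 to 107 CPM in the other 3. The gap made up 0.937 of the whole range, above Dixon's critical value for 4 samples. Chance flags about 1 in 20 such groups.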

How the results depend on the processing

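The 62 members higher in Rara KO cells became 23 with the Length trend removed and 17 with trends in GC, coding length and 3' UTR length removed (this set of trends was added after seeing the data), and 43 to 60 with each library left out; no alternative called a member lower. The 52 higher with RA became 19 with 4 pooled WT libraries, 19 at an adjusted p of 0.01, 23 with either trend removal, and 6 to 50 with each library left out. The 1 lower with RA became 0 with RLE scaling, with upper-quartile scaling, with no filter, with each experiment alone, at an adjusted p of 0.01, and with any library left out. The 2 differing effects became 0 with total-count scaling, with either trend removal and at 0.01, 10 at 0.1, 11 with DESeq2, and 0 to 1 with each library left out. The median of 0.63 in Rara KO cells became 0.48 with total counts, 0.77 with pooled WT, 0.22 and 0.21 with the Length and the other trends removed, and 0.57 to 0.64 with each library left out. That of 0.39 with RA became 0.27 with pooled WT, 0.20 and 0.19 with those trends removed, and 0.32 to 0.44 with each library left out. The members above genes of like Length (67 and 68) were 64 to 68 and 66 to 68 with each library left out. With the Length trend removed, the 23 higher in Rara KO cells became 5 to 16 and the 23 with RA became 3 to 25 with each library left out; without centring, an alternative added after seeing the data, those with RA were 50 while the median of all genes moved to 0.17. Ndufc2 in Rara KO cells turned to -0.17 and -0.27 with the Length and the other trends removed, and Cox4i1 with RA turned to -0.029 with pooled WT. The cause of these changes was not tested beyond the smaller number of samples where a library is left out, after which a lone sample is assumed to vary like the other groups.

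A fit with the replicate number as a block, possible for Rara KO and WT only, called 63 members higher and 0 lower. The differences between replicates 1 and 2 correlated between the groups at 0.28 over tested genes and at 0.75 over the members, but with 2 pairs the samples share only a number. With 2 samples a group, members not called may still differ.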
